A study of Mus musculus with 34 samples.

Results

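The genes described here are 10 markers of the node and of the definitive endoderm: Noto, Foxj1, Shh, Chrd, Nog, Foxa2, Cer1, Sox17, Hhex and Trh. They were taken by symbol from gene tables that list 46785 genes for each embryo section and 37145 for each stem cell culture, and all 10 were found in every table. The study measured RNA by sequencing in 34 samples, asking what the long non-coding RNA Evx1as does in embryonic patterning, and 30 of them are analysed here. Of these, 24 are laser-captured pieces of sectioned C57/B6 embryos at embryonic day 7 and 6 are cultures of embryonic stem cells of the strain 129S1/SVImJ. The groups of sections are Evx1as-/- streak with 5 sections, Evx1as+/- streak with 6, Evx1as-/- mesoderm with 5, Evx1as+/- mesoderm with 3, and anterior epiblast with 1 section per genotype. Every embryo carries at least 1 mutant allele, and no wild-type embryo is among the sections. The cultures are 3 of the 4x polyA KI line and 3 of the wild-type line CJ9, all kept without leukemia inhibitory factor (LIF) to day 4, so that they leave the undifferentiated state. The labels name the knock-in only as that line, without the site of insertion or the number of clones, and they do not say which embryo a section is from. If several sections come from 1 embryo, the p-values over sections are too small. For the cultures, p-values reflect how cultures of the same line vary, which may be technical.

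The node is a small organizer at the anterior end of the primitive streak. Its cells carry motile cilia, give rise to the notochord, and secrete antagonists of bone morphogenetic proteins (BMP). Definitive endoderm, the source of the gut, leaves the streak with the mesoderm and displaces the visceral endoderm on the surface of the embryo. Noto and Foxj1 are transcription factors of the ciliated node, and Shh, Chrd and Nog are secreted proteins of the node and notochord. Foxa2 acts in node, notochord and endoderm. Cer1, a secreted antagonist of NODAL, BMP and WNT, and the transcription factors Sox17 and Hhex mark endoderm, including visceral endoderm. Trh encodes the precursor of thyrotropin-releasing hormone.

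Levels are the deposited FPKM values, in which fragments are divided by transcript length and by the fragments mapped in a library. The sum of FPKM was 132929 to 376860 in a section and 502990 to 582184 in a culture, and sequencing depth is unknown. The numbers of layers run from 1 to 11 and the labels do not give their direction. Evx1as, listed as 5730457N03Rik, averaged 0.0214 FPKM over the 10 homozygous streak and mesoderm sections and 0.962 over the 9 heterozygous ones. The labels of region were checked against marker genes. The summed FPKM of 5 streak markers was 228 to 425 in homozygous and 253 to 441 in heterozygous streak sections, against 57.8 to 82.4 and 12.6 to 41.1 in mesoderm sections of the same genotypes and 2.97 and 5.89 in anterior epiblast. The 4 mesoderm markers did not separate the regions, with 38.2 to 153 in homozygous and 21.2 to 136 in heterozygous mesoderm against 77.8 to 139 and 22.5 to 174 in streak layers 3 to 11. Markers of visceral endoderm were highest in homozygous streak layer 11, with a sum of 869 FPKM, and in homozygous mesoderm layer 9, with 548. They lay at 95.9 or below in the other 19 sections.

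The node genes were concentrated in the streak sections of layer 1, in both genotypes. Noto, a homeobox gene of the node, was at 63.2 FPKM in homozygous and 269 in heterozygous layer 1, against 0 to 0.527 in the other 19 sections. Foxj1, the regulator of motile cilium genes (chromosome 11, 116330704 to 116335399, mm10, minus strand), was at 12.2 and 70.2 FPKM in those sections, against 3.45 or less elsewhere. Chrd was at 14.4 and 34, against 2.30 or less. Fewer cells of a type in a section and less RNA per cell cannot be told apart in these data.

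**Figure D1:**
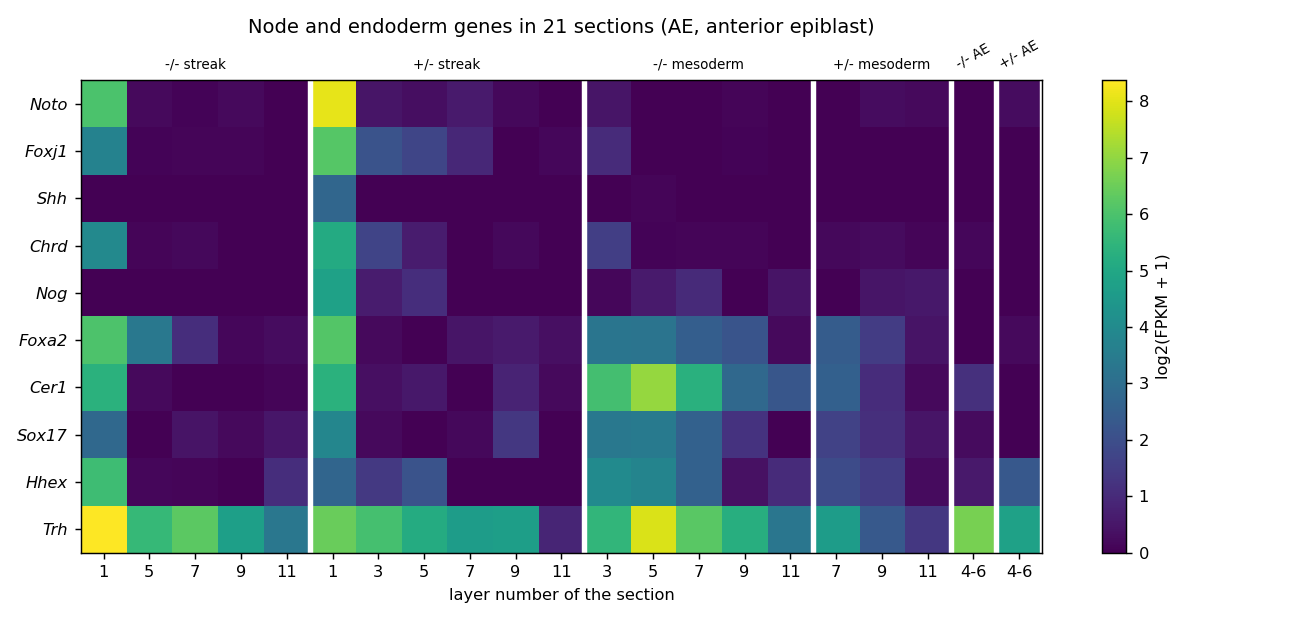
Level of each gene as log2(FPKM + 1), by colour, in 21 sections grouped by region and genotype (-/- homozygous, +/- heterozygous, AE anterior epiblast), each column labelled with its layer number. Noto, Foxj1 and Chrd stand out in the 2 layer 1 columns, Cer1, Sox17 and Hhex there and in homozygous mesoderm layers 3 to 7, and Trh in most columns.

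Noto lies on chromosome 6 from 85423886 to 85428877 (mm10, plus strand) and Chrd on chromosome 16 from 20733127 to 20742384 (plus strand). Cer1 lies on chromosome 4 from 82881751 to 82885148 (minus strand) and Hhex on chromosome 19 from 37434810 to 37440731 (plus strand). The promoters of this pair of node genes and this pair of endoderm genes, from RefSeq on GRCm38.p6, are shown because genes with a like pattern over the sections differ in their CpG content. Each window of 300 bases runs from 250 bases before the start site to 50 after it, on the strand of the gene, with CpG in capitals.
Noto, chr6:85423636-85423935: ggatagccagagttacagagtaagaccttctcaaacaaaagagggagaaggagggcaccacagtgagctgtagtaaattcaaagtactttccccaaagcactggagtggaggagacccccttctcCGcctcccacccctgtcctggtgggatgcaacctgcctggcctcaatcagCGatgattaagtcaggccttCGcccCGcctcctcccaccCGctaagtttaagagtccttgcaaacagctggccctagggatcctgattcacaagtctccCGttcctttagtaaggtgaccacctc
Chrd, chr16:20732877-20733176: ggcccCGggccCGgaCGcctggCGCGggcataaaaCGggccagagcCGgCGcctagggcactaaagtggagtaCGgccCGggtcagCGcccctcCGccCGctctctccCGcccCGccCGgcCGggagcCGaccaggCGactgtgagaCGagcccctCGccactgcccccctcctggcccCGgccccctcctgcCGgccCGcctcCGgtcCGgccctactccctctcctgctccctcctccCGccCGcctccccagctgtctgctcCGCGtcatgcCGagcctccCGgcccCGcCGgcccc
Cer1, chr4:82885102-82885401: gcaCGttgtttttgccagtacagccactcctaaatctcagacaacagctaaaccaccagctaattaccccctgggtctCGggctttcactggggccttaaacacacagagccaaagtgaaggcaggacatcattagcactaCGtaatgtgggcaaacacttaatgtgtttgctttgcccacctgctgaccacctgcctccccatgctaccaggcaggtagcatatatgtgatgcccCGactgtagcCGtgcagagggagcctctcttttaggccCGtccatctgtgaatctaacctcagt
Hhex, chr19:37434591-37434890: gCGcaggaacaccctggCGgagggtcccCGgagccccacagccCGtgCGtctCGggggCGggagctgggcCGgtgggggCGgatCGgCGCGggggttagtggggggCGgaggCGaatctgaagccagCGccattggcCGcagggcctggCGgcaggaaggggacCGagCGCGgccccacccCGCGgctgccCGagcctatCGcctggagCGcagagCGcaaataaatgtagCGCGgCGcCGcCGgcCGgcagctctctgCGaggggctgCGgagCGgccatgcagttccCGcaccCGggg

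The window of Noto held 6 CpG at 54.0% GC and that of Cer1 held 6 at 51.7%, near the median of all 32841 windows of the table, 7 CpG and 52.7% GC. The window of Chrd held 34 CpG at 78.3% GC and that of Hhex 37 at 75.7%. Of the 10 genes 6 have windows in this table, 8 windows in all, the others being those of Trh, with 28 CpG, and of Foxa2, with 12, 23 and 13. On either strand, 4 motifs were searched: TGTTTAC (forkhead), AATNCACA (FOXH1), TCACACC (T-box) and CCACCCA (GLI). They are in 3.65%, 3.6%, 3.98% and 9.31% of all windows and in 0 of these 8, which says only that these letters are not in these windows.

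Streak layer 1 was set against streak layers 3 to 11 with genotype as a term. The comparison is between 2 sections and 9. With limma on log2(FPKM + 1) and Benjamini-Hochberg (BH) adjustment over 9932 genes, 7 of the 9 members tested were higher in layer 1 and 0 lower at an adjusted p under 0.05, where 2.19% of all genes were higher and 0.141% lower. Of the 9, only Foxa2 and Trh average 1 FPKM over layers 3 to 11, so the others entered the test through layer 1 itself and their number is a description. Noto had a log2 change of 6.83 ± 0.425 (SE; adjusted p = 1.16e-06) and Chrd of 4.26 ± 0.471 (adjusted p = 0.000246). Foxj1 rose by 4.42 ± 0.551 (adjusted p = 0.000684), and its p was 0.122 without the heterozygous layer 1 section. Trh had a log2 change of 2.79 ± 0.978 and did not pass (adjusted p = 0.205). The median log2 change was 4.26 over the members tested and 0.30 over all genes.

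Shh, the hedgehog ligand of node and notochord (chromosome 5, 28456815 to 28467256, minus strand), was seen in a single streak section. It was listed at 0 FPKM in homozygous layer 1 and at 5.81 in heterozygous layer 1, and it was at 0 in all 9 streak sections of layers 3 to 11. The remaining value above 0 in the 21 sections was 0.0717 in homozygous mesoderm layer 5. Nog, the BMP antagonist noggin (chromosome 11, 89300638 to 89302332, minus strand), was likewise listed at 0 in homozygous and at 26.7 FPKM in heterozygous layer 1, and did not exceed 1.16 elsewhere. Its log2 change in layer 1 did not pass with both genotypes (2.27 ± 0.727, adjusted p = 0.152). With the homozygous layer 1 section left out it was 4.44 (adjusted p = 0.000613). Shh overlaps 2 annotated non-coding genes and Chrd overlaps Thpo on the opposite strand, and since it is not stated that counting used the strand, reads of such pairs cannot be told apart.

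Foxa2, a forkhead factor of node and endoderm (chromosome 2, 148042877 to 148046969, minus strand), was nearly level between the genotypes in layer 1, at 64.7 FPKM in the homozygous and 68.7 in the heterozygous section. In layers 3 to 11 it was at 9.33 in homozygous layer 5 and at 1.12 or less in the other 8 streak sections. It was higher in layer 1 by 5.32 ± 0.641 (log2, SE; adjusted p = 0.000565), a call lost without the heterozygous layer 1 section (4.82, adjusted p = 0.0879). Cer1 was at 39.6 and 39.3 FPKM in the same sections, against 0 to 0.767 in streak layers 3 to 11 (log2 change 5.10 ± 0.371, adjusted p = 4.93e-06). Sox17 (chromosome 1, 4490931 to 4497354, minus strand) was at 6.03 and 13.4, against 0 to 1.55 (3.01 ± 0.457, adjusted p = 0.00212). Hhex was at 53.7 and 5.63, against 0 to 3.39 (3.70 ± 0.720, adjusted p = 0.0119), and without the homozygous layer 1 section its log2 change was 2.03 (adjusted p = 0.375). With a pseudocount of 0.1 FPKM, Sox17 and Hhex did not pass (adjusted p = 0.0948 and 0.145). All 4 were above every other streak section in both layer 1 sections.

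Motile cilium genes, a list of 14, were also at their highest in layer 1. Their summed level was 22.7 FPKM in homozygous and 186 in heterozygous layer 1, and it was 2.91 or less in each of the other 19 sections. Of the 6 tested, 5 rose in layer 1 and 1 did not pass, with a median log2 change of 3.21 and the same condition on entry as above. Tekt1, a tektin of the ciliary axoneme, was at 4.32 FPKM in homozygous and 48.0 in heterozygous layer 1 (log2 change against layers 3 to 11 of 3.95, adjusted p = 0.00163). Rsph4a, a radial spoke protein, was at 3.69 and 20.9 (3.36, adjusted p = 0.00163), and Dynlrb2, a dynein light chain, at 3.53 and 58.8 (3.97, adjusted p = 0.00258). Tekt2, another tektin, was at 3.62 and 15.2 (3.06, adjusted p = 0.00169).

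Other organizer and endoderm genes, a list of 26 with 22 tested, gave 6 higher, 1 lower and 15 not past the threshold in layer 1 (median log2 change 1.03). Lhx1, a homeobox gene of the organizer, rose by 3.00 (adjusted p = 0.00163), Foxa1 by 3.09 (adjusted p = 0.00163), Cfc1, a NODAL co-receptor, by 4.17 (adjusted p = 0.0021) and Rfx3, a factor of cilium genes, by 2.55 (adjusted p = 0.00231). Of 12 genes of BMP signalling tested, 2 ligands rose, Bmp2 by 3.21 (adjusted p = 0.00182) and Bmp7 by 3.13 (adjusted p = 0.00474). Of 5 hedgehog genes tested, Gas1, a co-receptor, fell by 3.25 (adjusted p = 0.00224) and 4 did not pass. Markers of other cell types were also measured in layer 1. Of 4 trophoblast markers tested Plet1 rose (3.15, adjusted p = 0.00775), and 0 of 10 visceral endoderm markers passed, with sums of 71.8 FPKM in homozygous and 46.6 in heterozygous layer 1, against 3.97 to 869 and 5.99 to 42.7 in layers 3 to 11. Summed over the whole list, trophoblast markers were at 37.7 FPKM in homozygous and 66.4 in heterozygous layer 1, against 1.49 to 55.4 and 5.04 to 9.82 in layers 3 to 11. Most of the layer 1 sums was Rhox5 (31.9 in homozygous and 39.8 in heterozygous) and Plet1 (4.16 and 21.3), and Elf5 and Ascl2 were at 0 in both. Rhox5 was also at 38.4 in homozygous streak layer 11 and at 38.8 in homozygous mesoderm layer 9, the sections highest in visceral endoderm markers. The 4 mesoderm markers summed to 4.82 and 13.6 in layer 1, against 77.8 to 139 and 22.5 to 174. The part of these cells in the layer 1 values was not tested. Foxa1, Bmp2 and Plet1 averaged under 1 FPKM over streak layers 3 to 11 and entered the test through layer 1. Their p-values and their part in the counts are therefore a description.

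The layer 1 section of each genotype held these genes at different levels. With 1 section each there is no replicate and no test. The homozygous section had less Noto (log2 difference -2.07) and Foxj1 (-2.43), had Shh and Nog listed at 0, and had more Hhex (3.04). Past a log2 difference of 2 were 4 of the 10 members lower and 1 higher in the homozygous section, beside 2.71% lower and 1.77% higher of 10921 genes. Chrd (-1.18), Sox17 (-1.03), Foxa2 (-0.09), Cer1 (0.01) and Trh (1.91) stayed within it. Shh and Nog met the filter, an average of 1 FPKM over the 2 sections, through the heterozygous section alone. The count of members is therefore a description. The deposited intervals of the FPKM values did not overlap for Noto (57.9 to 68.5 in the homozygous and 258 to 279 in the heterozygous section) or Hhex (48.3 to 59.1 and 3.93 to 7.34). Those intervals describe each library alone.

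**Figure D2:**
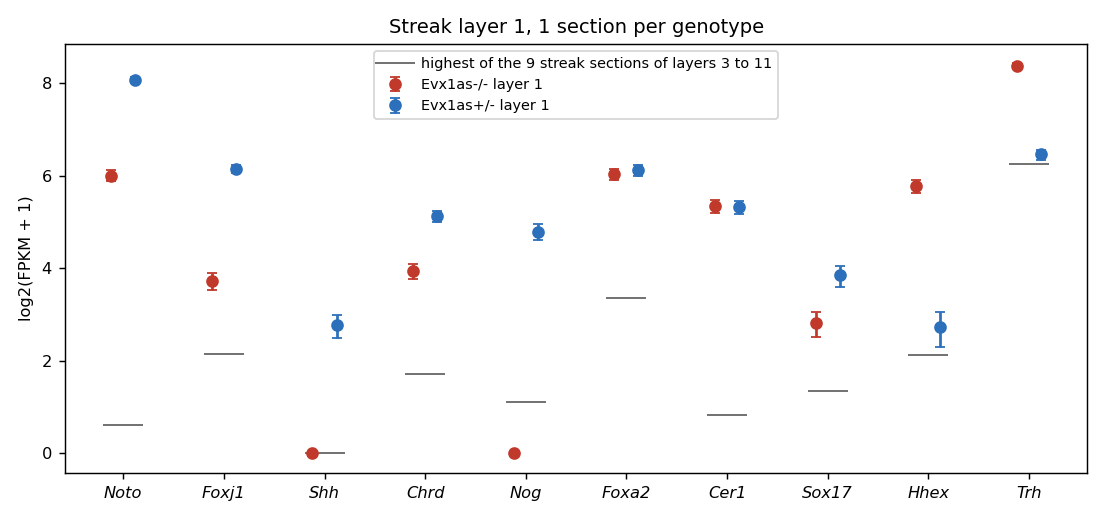
Level of each gene as log2(FPKM + 1) in the layer 1 section of each genotype (points, with the deposited interval) and the highest of the 9 streak sections of layers 3 to 11 (grey line). Foxa2 and Cer1 are close in the 2 sections, Noto and Foxj1 are lower in the homozygous section, Shh and Nog are at 0 there, and Hhex and Trh are higher there.

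Cilium genes were also lower in the homozygous section. Of 10 that averaged 1 FPKM or more over the 2 layer 1 sections, all 10 were lower in the homozygous section (median -2.09, against 0.00 over all genes). In 5 of them the log2 difference was at least 2, as in 2.71% of all genes. Rsph1 (0.638 FPKM in the homozygous and 6.66 in the heterozygous section) and Spag6 (0.674 and 2.62) met this filter through the heterozygous section. The count is therefore a description. Of 24 organizer and endoderm genes measured, 6 were higher and 1 lower by that size. Mixl1, a homeobox gene of mesendoderm, was at 209 FPKM in the homozygous and 3.56 in the heterozygous section, Gsc, a homeobox gene of the organizer, at 21.2 and 0.712, Otx2 at 45.7 and 3.38, and Eomes at 56.1 and 11.1. Tdgf1 and Lefty1 were the others. Gsc and Lefty1, the latter at 5 and 0 FPKM, met the filter through the homozygous section alone, so this count is also a description. T, the brachyury gene of streak and notochord, was lower in the homozygous section by less than that size, at 72.0 and 263. Of 5 hedgehog genes measured, 0 were past that size in either direction (median -0.38), Ptch1, the receptor that hedgehog signalling itself induces, among them (-1.34).

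In mesoderm sections the endoderm genes were highest in homozygous layers 3 to 7, and the node genes were low throughout. Cer1 was at 57.3, 131, 38.9, 6.13 and 3.71 FPKM in homozygous layers 3, 5, 7, 9 and 11, and at 4.94, 1.11 and 0.151 in heterozygous layers 7, 9 and 11. The homozygous section was higher in 3 of 3 matched layers. Sox17 was at 9.14, 9.89, 5.06, 1.35 and 0 in the homozygous layers and at 2.13, 1.17 and 0.392 in the heterozygous ones. Hhex was at 15.0, 12.7, 5.09, 0.285 and 1.02 in the homozygous layers and at 2.78, 1.85 and 0.188 in the heterozygous ones. Both were higher in the homozygous section in 2 of 3 matched layers. Foxa2 was at 8.54, 8.37, 4.65, 3.47 and 0.148 in the homozygous layers, close to the 4.46, 1.83 and 0.373 of the heterozygous ones. The groups overlapped for all 4. Noto, Foxj1, Shh, Chrd and Nog stayed at 1.92 FPKM or less in every mesoderm section.

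**Figure D3:**
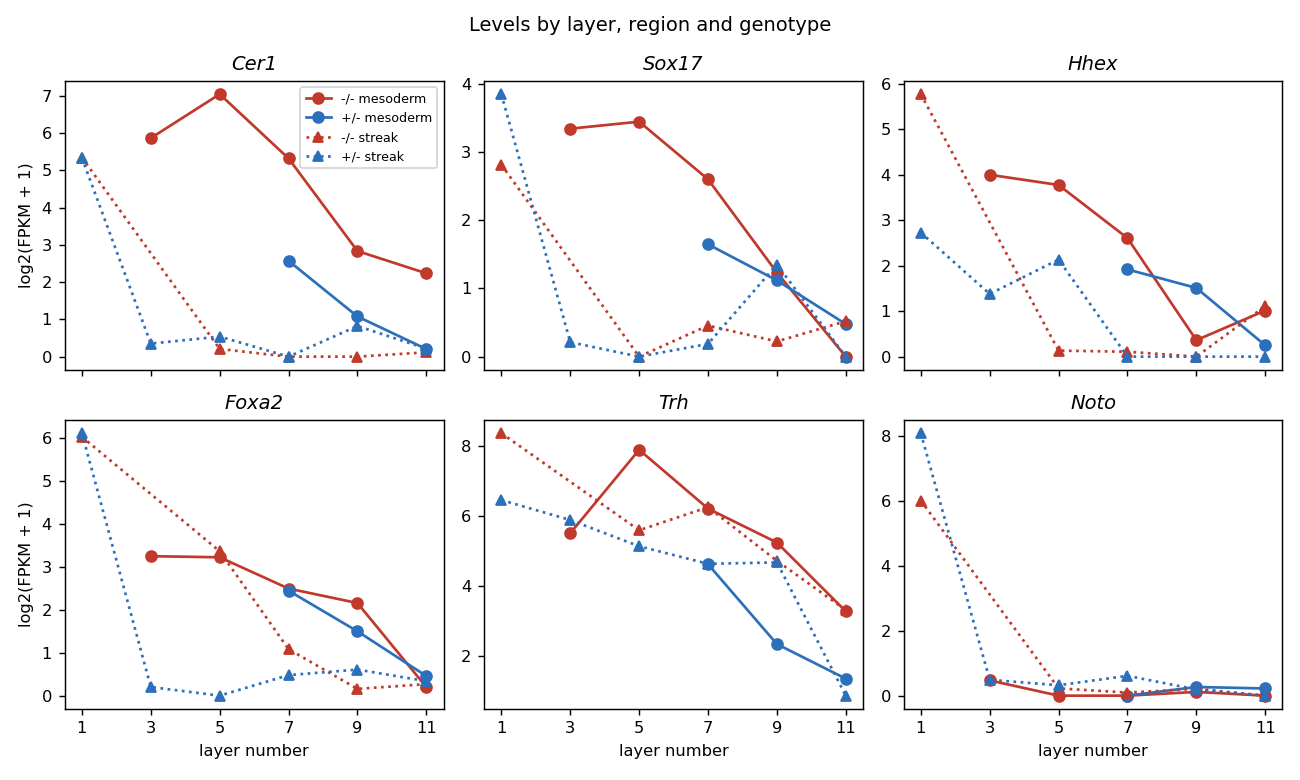
Level as log2(FPKM + 1) against layer number for 6 genes, with circles and full lines for mesoderm, triangles and dotted lines for streak, red for homozygous and blue for heterozygous sections; each point is 1 section, lines join the layers measured, and the homozygous streak has no layer 3. The mesoderm points of Cer1, Sox17, Hhex and Foxa2 lie lower at layers 9 and 11 than at layers 3 and 5, and Noto is high in streak layer 1 alone.

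All 5 members that could be tested in mesoderm had a negative slope against layer number, and 0 of them passed the test. The median slope was -0.43 over the 5 and 0.01 over all genes. The 5 are not independent, as Cer1 and Sox17 correlated at 0.93 over the 21 sections. The change per layer number (log2, genotype as a term) was -0.58 ± 0.103 for Cer1, -0.46 ± 0.0823 for Hhex, -0.42 ± 0.0716 for Sox17, -0.38 ± 0.0738 for Foxa2 and -0.43 ± 0.137 for Trh (SE). The adjusted p was 0.171 for the first 3, 0.201 for Foxa2 and 0.844 for Trh. In this trend 0.0115% of 8695 genes passed with a rise and 0% with a fall, with 423 at an unadjusted p under 0.05 (limma). The heterozygous mesoderm lacks layers 3 and 5, so the high end of the trend rests on homozygous sections.

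Within homozygous embryos, mesoderm was compared with streak in the 4 layers that have both. Cer1 was higher in mesoderm in 4 of 4 layers, at 131, 38.9, 6.13 and 3.71 FPKM in mesoderm layers 5, 7, 9 and 11 and at 0.153, 0, 0 and 0.0837 in the streak sections of those layers. Its log2 change was 4.28 ± 0.655 (limma with layer as a block, adjusted p = 0.0226), 1 of 5 members tested to pass, where 0.0743% of all genes were higher and 0.573% lower. Sox17 (1.52, adjusted p = 0.171), Hhex (1.60, adjusted p = 0.162), Foxa2 (0.80, adjusted p = 0.268) and Trh (0.69, adjusted p = 0.298) did not pass. Cer1, Sox17 and Hhex averaged 0.0592, 0.243 and 0.333 FPKM in the homozygous streak sections, under the filter, and entered the test through mesoderm, so their p-values and their count are a description. The Cer1 call was lost after scaling libraries by their median ratio (4.45, adjusted p = 0.0861), without the filter on low values (adjusted p = 0.36), without layer 5 (3.42, adjusted p = 0.0753) and without layer 9 (4.76, adjusted p = 0.103).

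Layers 9 and 11 hold the sections high in visceral endoderm markers. Without these layers, a comparison added after the data were seen, Hhex had a log2 change of 3.07 (limma, adjusted p = 0.00936) and Sox17 of 2.79 (adjusted p = 0.0207), and they passed beside Cer1, where 0.213% of 9409 genes were higher. These are the same members that entered through mesoderm, and 2 sections of each region remain, so the values are again a description. The marker list does not hold Dkk1, Lefty1 or Sfrp5, which are also known from the anterior visceral endoderm. The part of visceral endoderm in the values of the endoderm members was not tested. In homozygous streak layer 11, where all 16 visceral endoderm markers found were at 1 FPKM or more, Cer1 was at 0.0837, Sox17 at 0.433, Foxa2 at 0.205 and Hhex at 1.16. In homozygous mesoderm layers 3, 5 and 7, where Cer1 was highest, the marker sums were 35, 52.9 and 36.2 FPKM. They were 13.1 to 64.2 in heterozygous mesoderm, which has layers 7, 9 and 11. Blood markers summed to 3.34 or less in mesoderm, and trophoblast markers to 8.59 to 43.5 in homozygous and 3.63 to 23.0 in heterozygous mesoderm, and their part in the values was not tested.

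Other genes of the organizer and endoderm list that passed in this comparison were Gata6, a factor of mesoderm and endoderm, higher by 2.08 (adjusted p = 0.0148), and Fst, Mixl1 and T, lower by 3.57, 2.74 and 3.03 on the log2 scale (adjusted p = 0.000359, 0.00183 and 0.00193). In all 2 of 20 were higher, 3 lower and 15 did not pass. Gata6 was at 1.78, 0.629, 0.578 and 0.0846 FPKM in homozygous streak layers 5, 7, 9 and 11. It averaged under 1 FPKM there and entered the test through mesoderm, so its p-value and its part in the count are a description. In heterozygous embryos 0 of 3 members passed between mesoderm and streak (3 layers; 0% of genes higher, 0.231% lower; 1097 genes and 0 members at an unadjusted p under 0.05, limma). Cer1 had a log2 change there of 0.94 (95% interval -0.78 to 2.66), against 2.82 to 5.74 as the interval in homozygous embryos. The test of that difference over all layers (limma) gave 2.25 for genotype by region, with a 95% interval of -0.06 to 4.56 and an adjusted p of 0.999. In it 0 of 9527 genes passed, and 337 were at an unadjusted p under 0.05.

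Homozygous and heterozygous sections were then compared with layer as a term. In the mesoderm 0 of 5 members tested passed, where 0.196% of 8695 genes were higher and 0% lower, and 2 members were at an unadjusted p under 0.05 (limma). Those were Cer1, with a log2 change of 2.22 ± 0.560 (SE; adjusted p = 0.109), and Trh, with 1.99 ± 0.745 (adjusted p = 0.252). Homozygous layers 3 and 5 have no heterozygous match. Without layer 3 both passed (2.30, adjusted p = 0.0337, and 2.12, adjusted p = 0.0299), in a comparison where 139 genes did. Layer 5, with the highest Cer1 and Trh of the mesoderm sections (131 and 238 FPKM), stayed in that comparison, so its layers were not matched. The 4 epiblast markers, which are not members, also summed higher in the homozygous mesoderm, to 34.7 to 77.7 FPKM against 10.4 to 29.6 in the heterozygous sections, with no overlap. Most of the sum was Pou5f1, at 30.8 to 60.7 in homozygous and 8.21 to 24.0 in heterozygous mesoderm. Sox2 overlapped, at 0 to 1.93 and 0 to 3.07. The part of these markers in the Cer1 and Trh values was not tested. Sox17 (0.21), Hhex (0.20) and Foxa2 (0.04) had 95% intervals that reached at most 1.19 in size. Of the members under the filter, Noto, Foxj1, Shh, Chrd and Nog had exact two-sided permutation p-values of 0.714 to 1.0, where the smallest p that 5 against 3 sections can give is 0.0179.

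In the streak 0 of 9 members passed between the genotypes (5 against 6 sections; 0% of 9932 genes higher, 0.0201% lower; 1 member and 1012 genes at an unadjusted p under 0.05, limma). Foxj1 (-0.78), Nog (-0.97) and Chrd (-0.19) had negative and Foxa2 (1.19) and Hhex (0.60) positive log2 changes, each with a 95% interval that includes 0. Noto had an interval of -2.04 to 2.11, set by its layer 1 values. Foxj1 was lower in the homozygous section in 4 of 5 matched layers. It was at 0.0480, 0.0780, 0.0895 and 0 FPKM in homozygous layers 5, 7, 9 and 11, and at 3.45, 2.35, 0.910, 0 and 0.102 in heterozygous layers 3, 5, 7, 9 and 11. Among streak sections other than layer 1, Chrd and Nog were above 0.5 FPKM in heterozygous layers 3 and 5 alone, with 2.30 and 0.560 for Chrd and 0.565 and 1.16 for Nog. Foxa2 was the reverse in layer 5, at 9.33 in the homozygous and 0 in the heterozygous section. Its layer trend differed between the genotypes by -0.56 per layer at an unadjusted p of 0.0115 and did not pass (adjusted p = 0.994, limma; 360 genes at an unadjusted p under 0.05 and 0 past).

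**Figure D4:**
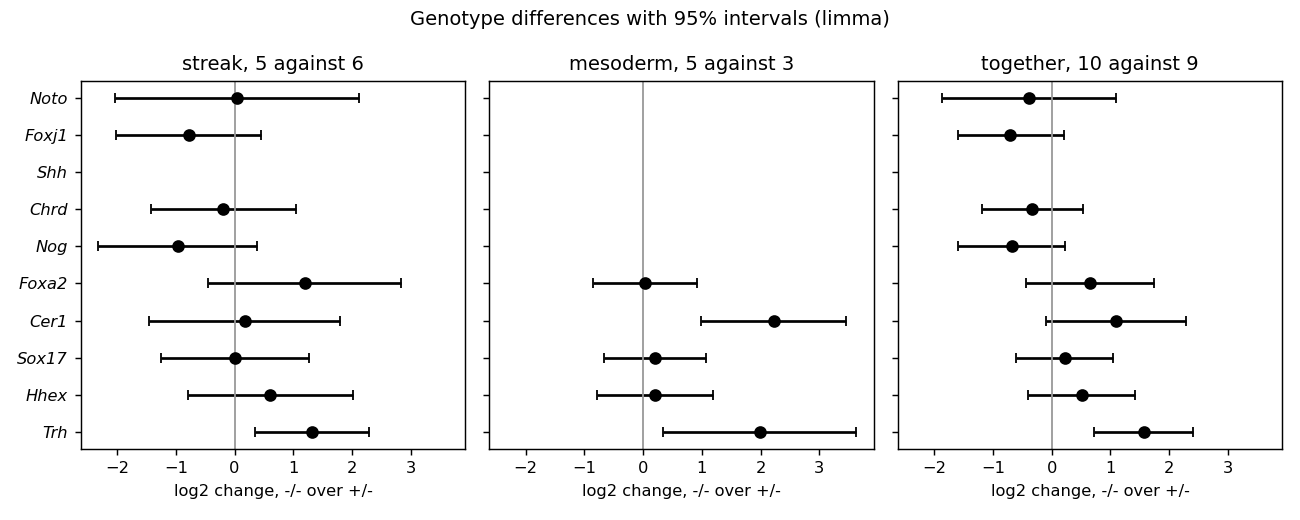
Log2 change of homozygous over heterozygous sections with 95% intervals (limma) in streak, in mesoderm and in both together, for members that passed the filter on low values. The intervals of Trh lie above 0 in the 3 panels and that of Cer1 in mesoderm, and 0 members passed after adjustment over all genes.

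Trh (chromosome 6, 92242061 to 92244650, minus strand) was the most widely present member, above 0 in all 21 sections. It was at 331 FPKM in homozygous and 87.3 in heterozygous streak layer 1. In homozygous streak layers 5, 7, 9 and 11 it was at 47.6, 75.7, 25.5 and 9.01, and in heterozygous layers 3, 5, 7, 9 and 11 at 58.5, 34.4, 24.0, 24.7 and 0.837. In homozygous mesoderm it was at 44.8, 238, 73.6, 37.1 and 8.75 in layers 3, 5, 7, 9 and 11, and in heterozygous mesoderm at 23.8, 4.10 and 1.57 in layers 7, 9 and 11. Levels were lowest at layer 11 in each of these series, and the genotypes overlapped. The homozygous section was higher in 5 of 5 matched streak layers and 3 of 3 matched mesoderm layers. The sum of the epiblast markers was also higher in the homozygous streak. It was 109 to 210 FPKM in homozygous and 36.7 to 106 in heterozygous layers 3 to 11, and 144 and 81.1 in layer 1. Most of it was Pou5f1, at 104 to 200 in homozygous and 33.3 to 103 in heterozygous layers 3 to 11. Sox2 overlapped there, at 0 to 1.31 and 0 to 2.54. The part of these markers in the Trh values was not tested. Over both regions Trh averaged 89.1 ± 108 FPKM in 10 homozygous and 28.8 ± 28.6 in 9 heterozygous sections (SD). The log2 change was 1.57 ± 0.408 (SE) and did not pass (limma, adjusted p = 0.0558; 0 of 9 members past, where 1.13% of genes were higher and 0.115% lower). It passed without homozygous mesoderm layer 3 (1.74, adjusted p = 0.0129), homozygous streak layer 5 (1.69, adjusted p = 0.0446) or heterozygous streak layer 9 (1.74, adjusted p = 0.0211). The median log2 change of all genes in this comparison was 0.24. Along streak layers 3 to 11 Trh changed by -0.49 per layer number (adjusted p = 0.402; 0 of 2 members passed, where 0.0105% of 9501 genes passed with a rise and 0% with a fall), and with layer 1 included by -0.46 (adjusted p = 0.0086).

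Among the partner genes, 6 of 22 tested were higher and 1 lower in homozygous sections over both regions. Lhx1 (2.07, adjusted p = 0.00319), Eomes (1.95, adjusted p = 0.00319), Gsc (1.88, adjusted p = 0.0104) and Tdgf1 (1.72, adjusted p = 0.0104) were first among those higher (limma). In heterozygous sections Gsc was above 0 only in streak layers 1 and 5, at 0.712 and 0.164 FPKM. It entered the test through homozygous sections, so its p-value and its part in the count are a description. Over both regions 0 of 4 cilium genes and 0 of 5 hedgehog genes passed, and 1 of 12 BMP genes, Smad1 (1.36, adjusted p = 0.00319). In mesoderm alone Tdgf1 was the partner gene to pass (2.41, adjusted p = 0.0399).

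In the anterior epiblast 8 of the members were at 1.23 FPKM or less in both sections. Trh was at 101 FPKM in the homozygous and 27 in the heterozygous section. Hhex was at 0.481 in the homozygous and 3.95 in the heterozygous section. Against streak layers 3 to 11, 0 of 2 members tested passed, Trh at 1.12 (adjusted p = 0.765) and Foxa2 at -0.65 (adjusted p = 0.799), where 0.179% of 9472 genes were higher and 0.486% lower (limma; 0 members and 850 genes at an unadjusted p under 0.05). Of 17 partner genes tested 8 were lower there, Fst (-5.03, adjusted p = 2.89e-06), T (-5.46, adjusted p = 4.2e-06), Mixl1 (-5.99, adjusted p = 6.59e-05) and Tdgf1 (-4.64, adjusted p = 0.0021) first. Gas1 was lower too (-3.38, adjusted p = 0.00357).

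Over the 21 sections the node and the endoderm members had different companions. The gene most like Noto in log2(FPKM + 1), of 7080 genes that averaged 1 FPKM or more, was Pifo (Pearson r = 0.994), followed by Enkur (0.979) and Rsph4a (0.977). For Foxj1 they were Enkur (0.970), Chrd (0.965) and Chrna9 (0.959), and for Chrd they were Enkur (0.977), Chrna9 (0.970) and Foxj1 (0.965). For Nog they were Efcab1 (0.873), Dynlrb2 (0.870) and Smim5 (0.866). Enkur, Rsph4a and Dynlrb2 are genes of cilia. The genes most like Cer1 were Sox17 (0.930), Gata6 (0.825) and Gfpt2 (0.813), and those most like Sox17 were Cer1, Samd3 (0.848) and Foxa2 (0.820). Hhex was most like Upp1 (0.821), Cer1 (0.791) and Sox17 (0.738), and Foxa2 most like Foxa1 (0.877), Tctex1d1 (0.865) and Samd3 (0.861). Ahsa2 (0.841) and Car2 (0.822) were among the genes most like Trh. These correlations describe 21 sections that share layers and perhaps embryos, and the 2 layer 1 sections carry much of the range of the node genes.

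In the cultures the genes of the node and endoderm were mostly low, and 3 of them differed between the lines. Noto and Shh were listed at 0 in all 6 cultures, and Cer1 in 5, with 0.0580 FPKM in knock-in replicate 2. Of 5 members tested, Trh and Foxa2 were higher in the knock-in line and Nog was lower, where 16.2% of 13133 genes were higher and 16.2% lower, so that a call is common in this comparison. Trh was at 52.5, 66.8 and 57.9 FPKM in knock-in cultures and at 7.74, 5.58 and 4.97 in wild-type cultures. It rose by 3.09 ± 0.178 on the log2 scale (SE; limma, adjusted p = 9.97e-05). Its groups did not overlap, as was so with higher knock-in values for 24.4% of all genes and with lower ones for 24.0%.

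**Figure D5:**
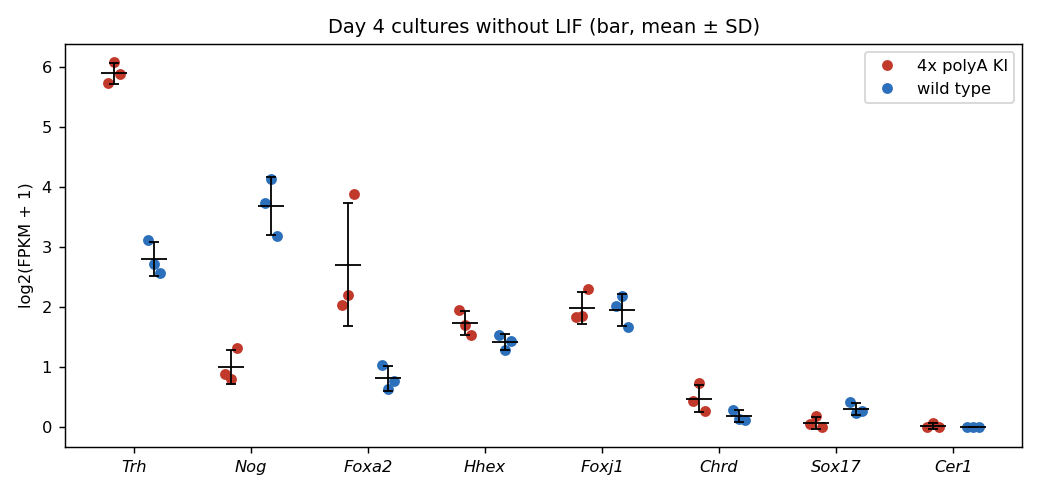
Level of 8 genes as log2(FPKM + 1) in 3 knock-in (red) and 3 wild-type (blue) cultures; each point is 1 culture and the bars give the mean ± SD. Trh and Foxa2 are higher and Nog is lower in every knock-in culture than in every wild-type culture, and Foxj1 overlaps. Noto and Shh, at 0 throughout, are not drawn.

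Nog moved the other way. It was at 0.843, 0.749 and 1.5 FPKM in knock-in cultures and at 12.4, 16.6 and 8.10 in wild-type cultures, and fell by 2.68 ± 0.269 (adjusted p = 0.000589). Foxa2 was at 3.10, 3.60 and 13.8 in knock-in cultures and at 1.05, 0.557 and 0.706 in wild-type cultures, with no overlap and with knock-in replicate 3 far above the others. It rose by 1.89 ± 0.458 (adjusted p = 0.017), and did not pass without the filter on low values (adjusted p = 0.0763) or without wild-type replicate 2 (1.80, adjusted p = 0.0528). Foxa2 averaged 0.772 FPKM in wild-type cultures, under the filter, and entered the test through the knock-in cultures. Its p-values and its part in the count of members are therefore a description. Tokens that read as sequencing lanes put 2 knock-in cultures and 1 wild-type culture in lane 3, and within it the log2 changes were 3.26 for Trh, -3.07 for Nog and 2.41 for Foxa2.

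Hhex (2.87, 2.28 and 1.92 FPKM in knock-in against 1.92, 1.44 and 1.72 in wild-type cultures) and Foxj1 (2.56, 2.60 and 3.93 against 3.07, 3.57 and 2.18) did not pass, with log2 changes of 0.31 (95% interval -0.13 to 0.75) and 0.03 (-0.47 to 0.54). Sox17 was at 0.0348, 0.140 and 0 in knock-in cultures and at 0.344, 0.180 and 0.208 in wild-type cultures (difference -0.23, exact two-sided permutation p = 0.1, the smallest that 3 against 3 can give). Chrd was at 0.350, 0.663 and 0.212 in knock-in and 0.228, 0.108 and 0.0904 in wild-type cultures (0.29, exact p = 0.2). Sox17 overlaps the annotated gene Gm37587 on the other strand.

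Genes of the signals these members act in were counted against the 16.2% of all genes that were higher and the 16.2% that were lower in knock-in cultures. Of 9 hedgehog genes tested 3 rose and 2 fell in the knock-in line, among them the targets Ptch1 (log2 change 1.61, adjusted p = 0.000625) and Gli1 (1.27, adjusted p = 0.00163), both higher, and Gli2 (-2.18, adjusted p = 0.000317), lower. Shh itself was listed at 0 in these cultures. Of 18 BMP genes 1 rose and 10 fell (median -0.74, against 0.02 over all genes), with the ligand Bmp4 lower by 2.75 on the log2 scale (adjusted p = 0.00131), Msx2, a target, lower by 3.85 (adjusted p = 0.000216), Msx1 by 2.23 (adjusted p = 0.00114) and the protease Bmp1 by 2.29 (adjusted p = 0.000298). Of 21 partner genes 4 rose and 8 fell, Tdgf1 higher (1.65, adjusted p = 0.00141) and Mixl1 (-3.84, adjusted p = 0.000129), T (-3.79, adjusted p = 0.000298) and Gata6 (-1.72, adjusted p = 0.00304) lower. The cilium genes Rfx2 (0.99, adjusted p = 0.0128) and Ccdc40 (1.26, adjusted p = 0.0261) rose, the 2 of 14 that could be tested. Rfx2 was at 0.643, 0.157 and 0.678 FPKM in wild-type cultures, and Gata6 at 0.428, 0 and 0.145 in knock-in cultures. Each averaged under 1 FPKM in that line and entered the test through the other line. Their p-values and their part in the counts are therefore a description.

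Other cell types in the cultures were looked at through the same marker lists. The visceral endoderm list summed to 11.6 to 19.2 FPKM in knock-in and 76.4 to 131 in wild-type cultures, and the 2 of its genes that could be tested, Cited1 and Dab2, fell, while the defining markers Ttr and Afp were listed at 0 in all 6. The trophoblast list summed to 14.5 to 19.2 in knock-in and 39.5 to 88.8 in wild-type cultures, with 2 of 6 tested higher and 3 lower. Those lower were Hand1, Gata3 and Cdx2, and Elf5 of the same list was at 0.287 or less in all 6 cultures. Gata3 (0.00743, 0.402 and 1.17) and Cdx2 (0.177, 0.0896 and 0.734) averaged under 1 FPKM in knock-in cultures. They entered the test through the wild-type line, so their part in the count is a description. Epiblast markers summed to 1330 to 1520 in knock-in and 513 to 653 in wild-type cultures, and primitive streak markers to 80.8 to 95.8 in knock-in and 240 to 410 in wild-type cultures, with no overlap in either list. Mesoderm markers overlapped, at 36.9 to 52.6 and 40 to 91.7. The part of these cells and states in the differences was not tested.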

How the data were processed

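Deposited values were FPKM per gene and library, made by the authors, with an interval per value, per the file headers, in the column layout of Cufflinks. CASAVA, TopHat2 2.0.11 and mm10 are named per the submitters' processing notes. Positions in the embryo tables match mm10 and those in the culture tables an earlier build, so positions are given from the embryo tables. Libraries came from a stranded mRNA kit and sections from Geo-seq, per the labels' protocols. Whether counting used the strand, and the tool that made the values, are not given in the sources used here. The tables hold no counts, depth is unknown, and no count model was run.

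Values of repeated identifiers were added and values under 1e-06 FPKM set to 0. Genes that averaged 1 FPKM or more in a comparison's libraries were fitted as log2(FPKM + 1), which understates changes of low genes, with limma 3.58.1 in R 4.3.3 (prior with trend, two-sided, BH-adjusted over all genes tested, threshold 0.05). The fits were tested on simulated data. Members under the filter were compared by exact permutation tests. Single sections were compared by a log2 difference of at least 2 with no test. Other genes named are up to 4 past the threshold per list and comparison, smallest adjusted p first, and the 3 with the highest correlation per member. Some genes that these rules name are not reported here. Between single sections, and beyond these rules, partner, cilium, marker and hedgehog genes were named after their values were seen. The members and lists were chosen with earlier results of these data known. Groups follow the labels. In 3 further sections title and cell type label conflict, and they entered no comparison. The 4 posterior pieces are not analysed here. Alternatives were a pseudocount of 0.1 FPKM, no filter, scaling by the median ratio, replicate blocks and leaving out sections. The layer blocks rest on shared layer numbers, which mark position and no shared embryo.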

Additional observations from a re-analysis of the deposited data

Results flagged for a closer look

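Of 28 pairs of group and member in groups of 4 to 10 sections, 19 held a section whose gap to the nearest other, divided by the range of the group, exceeded Dixon's 95% value. Chance gives about 1 in 20 groups, and the layer 1 sections, which are part of the streak groups, account for most. Homozygous streak layer 1 was the highest of its group in Cer1 (39.6 FPKM), Sox17 (6.03), Hhex (53.7), Noto (63.2), Foxj1 (12.2) and Chrd (14.4). Heterozygous streak layer 1 was the highest of its group in Cer1 (39.3), Sox17 (13.4), Foxa2 (68.7), Noto (269), Foxj1 (70.2), Shh (5.81), Chrd (34) and Nog (26.7). Heterozygous streak layer 11 was the lowest of its group in Trh (0.837), on the log2 scale used for this rule. In homozygous mesoderm, layer 3 was the highest in the node genes Noto (0.385), Foxj1 (1.03) and Chrd (1.92), and layer 5 in Shh (0.0717), all at low levels.

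The 3 sections whose title and cell type label name different regions were set against the 8 heterozygous sections of layers 3 to 11. The homozygous one, titled as streak layer 3 and labelled as mesoderm, was above all 8 in Foxa2 (26.1 FPKM), Foxj1 (4.44), Chrd (2.62), Noto (1.81), Hhex (3.84) and Trh (181). Of the 2 heterozygous ones, titled as mesoderm and labelled as streak, the section titled layer 3 was above them in Cer1 (6.04), and the section titled layer 7 in Cer1 (20.8), Sox17 (2.71) and Foxa2 (5.12). Their tables carry tokens that read as lanes 5 and 6, where those of the other 21 sections carry lane 2, and the part of the lane was not tested.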

How the results depend on the processing

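Over 65 results for single members, 709 settings were run. Of these, 689 stayed on the same side of the threshold, 11 lost the call, 9 gained it and 0 reversed a call. Changes of sign in results without a call were counted among the 689. Between genotypes in streak, for example, the log2 change of Cer1 ranged from -0.57 to 0.63. Those lost or gained are given beside the results. The count of members past the threshold stayed within 1.5 times under the other settings, except the following. Between mesoderm and streak in homozygous embryos it was 1 as reported, 0 after scaling and 0 without the filter, and 3 without layers 9 and 11. With layers 1 to 11 the streak trend had 1 member.

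Leaving out 1 library at a time, or 1 layer with both its sections between mesoderm and streak, members past the threshold ranged from 2 to 3 in cultures, 4 to 7 in streak layer 1 (4 without heterozygous layer 1), 0 to 1 between homozygous mesoderm and streak, 0 to 2 between genotypes in mesoderm and 0 to 1 over both regions. Genes past the threshold ranged from 2693 to 3976 in cultures, 26 to 171 in streak layer 1 (26 without heterozygous layer 1), 14 to 61 in anterior epiblast, 0 to 9 between genotypes in streak, 0 to 139 in mesoderm and 43 to 577 over both regions, 47 to 115 between heterozygous and 13 to 60 between homozygous mesoderm and streak, and 0 to 1 in both layer trends.

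Genes past the threshold under other settings were as follows. After scaling there were 8 between genotypes in streak (2 as reported), 6 between heterozygous (20) and 16 between homozygous mesoderm and streak (61), and 1 in each interaction (0). A pseudocount of 0.1 gave 1 between genotypes in streak, 5 between heterozygous mesoderm and streak, 1 in the interaction with layer and 39 in streak layer 1 (232). Without the filter there were 0 between genotypes in streak, 0 in mesoderm (17) and 19 over both regions (119), 1 in the interaction with region, 2 and 3 between heterozygous and homozygous mesoderm and streak, 0 in both layer trends (1 each), 590 in streak layer 1 and 186 in anterior epiblast (63). Without streak layer 1 there were 5 between genotypes in streak, and with it the streak trend had 8. Without the sections high in visceral endoderm markers, chosen after the data were seen, there were 0 in streak, 0 in mesoderm and 25 over both regions. The causes were not tested.

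The replicate numbers of the cultures pair nothing in the labels, and same-numbered cultures deviated with correlations of -0.12, -0.05 and -0.05. With the replicate block 3166 genes and 3 members passed in cultures (Trh adjusted p = 0.00149, Nog 0.00449, Foxa2 0.0237). With the layer number as a replicate block, 0 genes passed between genotypes in streak, 0 in mesoderm and 14 over both regions, and 0 members in each. Same-layer sections correlated at 0.48 in streak layer 1 and at 0.01 to 0.07 in the other matched layers. Without the layer as a replicate block, 5 genes passed between heterozygous and 312 between homozygous mesoderm and streak. FPKM without counts give no depth, so low values such as those of Shh carry no detection limit.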

Other observations

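The homozygous section with conflicting labels held streak genes, with 226 FPKM of Mixl1, 61.3 of Eomes and 39.8 of T, beside 8.00 of Gsc and 11.7 of Rfx3. The heterozygous sections with conflicting labels held 1.69 and 1.79 FPKM of Mixl1 and 21.0 and 8.34 of T in the sections titled mesoderm layer 3 and layer 7, where heterozygous mesoderm sections held 1.27 to 10.2 of Mixl1 and 6.17 to 22.2 of T and heterozygous streak layers 3 to 11 held 42.7 to 180 of Mixl1 and 133 to 297 of T. No group was drawn from these values.

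Of the partner genes that are also known from the anterior visceral endoderm, 3 are given here, chosen after their values were seen. Dkk1, a WNT antagonist, was at 5.47, 13.3, 8.24, 2.85 and 3.66 FPKM in homozygous mesoderm layers 3, 5, 7, 9 and 11, and at 1.87, 0.384 and 2.40 in heterozygous layers 7, 9 and 11. It was also at 4.08, 6.38, 4.78 and 8.47 in homozygous streak layers 5, 7, 9 and 11, where Cer1 was at 0.153 or less. Lefty1, a NODAL antagonist, was at 13.2, 1.08 and 1.31 in homozygous mesoderm layers 3, 5 and 7, and was listed at 0 in the homozygous layers 9 and 11 and in all 3 heterozygous mesoderm sections. Sfrp5, a WNT antagonist, was at 4.28, 1.32, 0.478 and 1.06 in homozygous layers 5, 7, 9 and 11, was listed at 0 in homozygous layer 3, and was listed at 0 in all 3 heterozygous mesoderm sections. The part of anterior visceral endoderm in these values and in those of Cer1 was not tested.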
